A study of Sedum plumbizincicola and Sedum alfredii with 13 samples.

Results

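The comparison set roots against shoots of Sedum plumbizincicola plants that had been given 10 µM CdCl2 for 3 days. It rests on 4 Illumina RNA-seq libraries, chosen by their labels from the 12 of the series that have a file: root libraries A and B and shoot libraries A and B, 2 to each organ. Sedum plumbizincicola is a small succulent that hyperaccumulates cadmium (Cd) and zinc in its leaves. Untreated plants of the same species (0 µM CdCl2, 2 root and 2 shoot libraries) and Cd-treated Sedum alfredii (1 root and 1 shoot library at 10 µM) are set beside them. Untreated Sedum alfredii (1 root and 1 shoot library at 0 µM) enters where reads are summed over the 4 Sedum alfredii libraries to sort transcripts into classes. The Sedum alfredii plants are of a form that the series title calls a non-hyperaccumulator. The series' design text calls the libraries of a group, A and B, biological replicates, and the labels do not say how many plants a library holds or how old the plants were, so p-values measure the spread between these libraries.

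Roots take up Cd from the medium through transporters that normally carry essential metals such as zinc and iron, and load it into the xylem, the vessels that carry it upward. In the leaves of a hyperaccumulator most of the metal is bound or moved into vacuoles, away from photosynthesis. Root and shoot therefore meet the same treatment as different tissues, one specialised in absorption and the other in photosynthesis and storage. In whole organs, a lower level can mean fewer cells of a type or less RNA per cell, and these cannot be told apart.

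The tables list 66584 clusters of assembled isoforms, called transcripts from here on. They fall into 50837 components, a component being the clusters that share the first part of their identifier. The identifiers carry no gene names, so transcripts are described by level, organ, size of difference and presence in the other species. The organ labels could not be checked against marker genes for the same reason. The 4 libraries held 1260160 and 1628928 reads from roots and 1962230 and 1861294 from shoots. At these depths 3 reads, the upper limit that a count of 0 allows, correspond to 2.12 and 1.63 CPM in roots and 1.74 and 1.74 CPM in shoots, where CPM is a transcript's reads per 1e+06 reads of the library, after scaling, and the limits cover counting error only.

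The libraries of an organ resembled each other far more than those of the other organ. Each pair was compared over its own set of transcripts. The sets held 16827 for the root libraries, 16797 for the shoot libraries and 18030 to 18586 for the 4 pairs of a root and a shoot library. Log2 CPM had a Pearson correlation of 0.948 between the root libraries and 0.970 between the shoot libraries, against 0.484 to 0.517 for the root-shoot pairs. Between 3818 and 4076 transcripts (20.5% to 22.6%) differed by 4-fold or more in a root-shoot pair. Between the root libraries 84 did so (0.499%), and between the shoot libraries 28 (0.167%). These correlations are across transcripts, which are not independent.

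Under Cd, roots and shoots differed in close to every second transcript tested. Of the 19935 transcripts with enough reads for a test, 4920 were higher in roots (24.7%) and 4656 were higher in shoots (23.4%). Together these were 9576 or 48%. The test was edgeR's quasi-likelihood test, with a Benjamini-Hochberg adjusted p under 0.05 as the threshold. In 4919 of the 4920 root-higher transcripts both root libraries lay above both shoot libraries, and in all 4656 shoot-higher transcripts the shoot libraries lay above the root libraries. Such separation was also seen in 74.5% of all tested transcripts. The median log2 fold change, root over shoot, was 1.73 among root-higher transcripts (interquartile range 1.07 to 3.64) and -2.06 among shoot-higher ones (-3.67 to -1.30), against 0.10 over all tested transcripts. With an organ at 0 reads set to 3 reads, the medians were 1.65 and -2.05.

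The split between organs was less even in an alternative that changed both the unit and the test. With limma on log2(TPM + 1), where TPM is the authors' length-corrected unit, 5677 transcripts were root-higher and 3475 shoot-higher, and the median of all transcripts shifted to 0.33. No transcript called by edgeR was called in the opposite direction there or under any other setting tried.

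**Figure D1:**
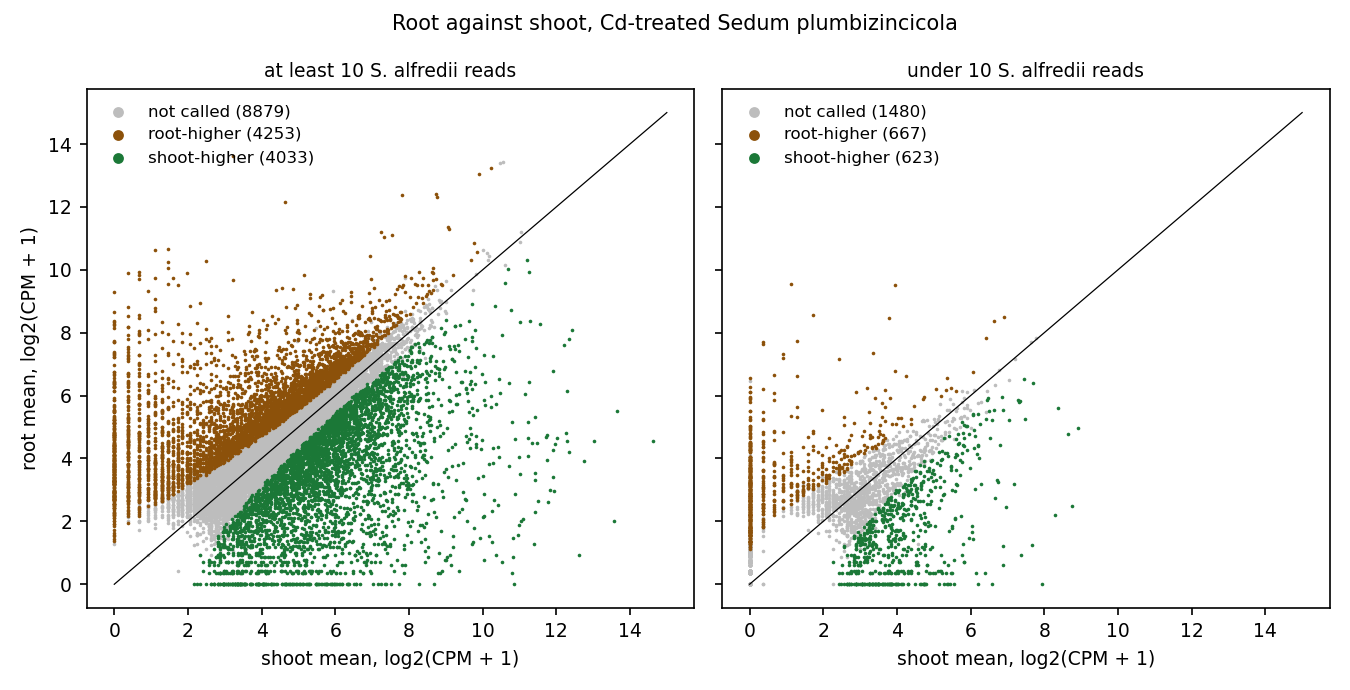
Mean level in roots (vertical axis) against shoots (horizontal axis) of Cd-treated Sedum plumbizincicola, both as log2(CPM + 1), 1 point per tested transcript; the line marks equal levels. Brown points are the 4253 and 667 root-higher and green points the 4033 and 623 shoot-higher transcripts in the left and right panel, which hold transcripts with at least 10 and with under 10 Sedum alfredii reads.

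Many of the differences were large. Among root-higher transcripts 40.5% differed by 4-fold or more and 13.7% by 16-fold or more, with an organ at 0 reads set to 3 reads. Among shoot-higher transcripts the shares were 51.7% and 18.8%. A difference of 64-fold or more was reached by 197 root-higher and 263 shoot-higher transcripts. At the other end, the 95% interval of the fold change lay within 2-fold for 3821 of the 10359 transcripts that were not called. For the other 6538 the interval was wider, so a 2-fold difference was not resolved at this depth. The 3821 include transcripts without a read in any Cd-treated library, such as c14760_g1. Their log2 fold change and SE were both 0 for lack of reads, so a 2-fold difference was not resolved for them either.

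Calls followed read depth. With the transcripts divided by level into 4 bins of equal size, 37.7% were called in the lowest bin, where the median was 35 reads over the 4 libraries. In the highest bin, with a median of 541 reads, 61.3% were called. The lowest bin held 1073 root-higher and 805 shoot-higher calls, and the highest 1485 and 1570. The median size of a called log2 difference was 3.32 in the lowest bin and 1.48 in the highest. Transcripts were of similar length in both lists, with a median of 1222 bases for root-higher, 1187 for shoot-higher and 1176 for all tested transcripts.

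The organs also divided their reads differently. Root libraries A and B needed 1656 and 1701 transcripts to account for 50% of their reads, and shoot libraries A and B needed 931 and 1106. The 100 most abundant transcripts held 18.1% and 18.3% of the root reads and 26.2% and 24.1% of the shoot reads. Shoot RNA was thus spread over fewer transcripts in both libraries, and the organs did not overlap. At an equal depth of 1260160 reads, that of root library A, the numbers of transcripts with a read were computed as expectations. They were 30638 and 31768 in roots and 27821 and 28588 in shoots. With 2 libraries against 2, an exact permutation test cannot give a p below 0.333, so none was run. In untreated plants the 50% mark lay at 1147 and 1775 transcripts in roots and at 985 and 932 in shoots, so untreated root library A stood near the shoots.

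**Figure D2:**
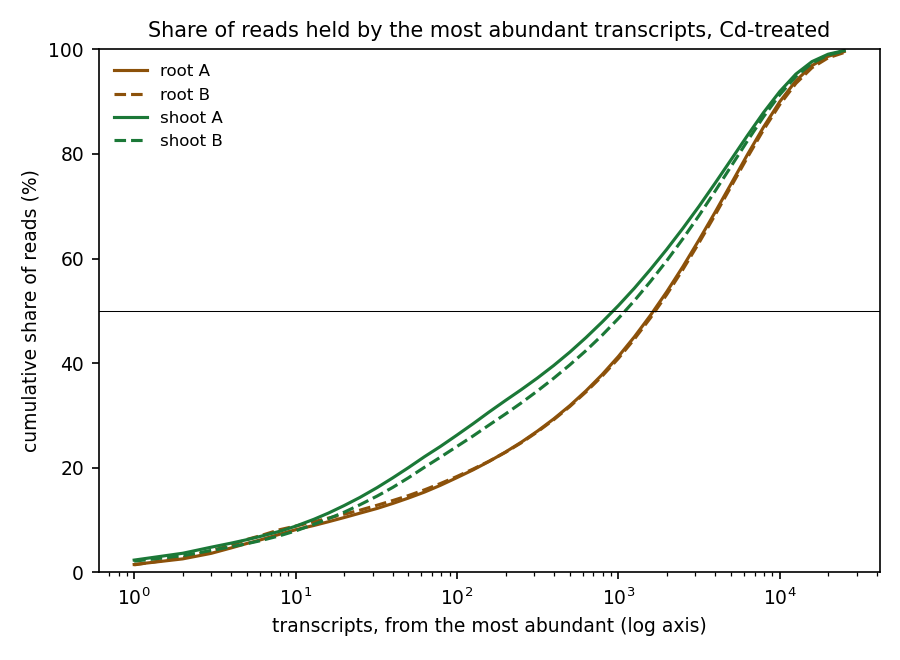
Cumulative share of reads (vertical axis, %) held by transcripts ranked from the most abundant (horizontal axis, log scale) in the 4 Cd-treated Sedum plumbizincicola libraries; the thin line marks 50%. The green shoot curves reach it at 931 and 1106 transcripts and the brown root curves at 1656 and 1701.

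Transcripts called root-higher held 47.4% and 45.3% of the reads of root libraries A and B and 10.4% and 11.3% of those of shoot libraries A and B. The shoot-higher transcripts held 59.5% and 56.7% of the shoot reads and 10.9% and 11.2% of the root reads. These orders follow from the choice of the lists in the same libraries. The transcripts that were not called took 39.7% and 41.2% of root reads and 28.5% and 30.2% of shoot reads.

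The highest fitted log2 fold change, which for a transcript at 0 reads depends on the prior count, was that of c35293_g2. It stood at 709.5 and 540.1 CPM in root libraries A and B (mean 625 ± 120, SD, n = 2) and had 0 reads in both shoot libraries. The pooled root level was at least 706-fold above the limit of 3 reads over the shoots (edgeR adjusted p = 3.93e-10). All 3 tested members of its component were root-higher. The next was c36317_g1, at 418.8 and 386.0 CPM in roots (mean 402 ± 23.2, SD, n = 2) and without a read in the shoots, which puts the roots at least 460-fold higher (edgeR adjusted p = 1.97e-10). In untreated shoots these transcripts were near 0 too, at 2.14 and 0.58 CPM for c35293_g2 and 0.53 and 0.58 CPM for c36317_g1.

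In the other direction, c45296_g3 had 0 reads in both root libraries and stood at 2004 and 1686 CPM in shoot libraries A and B (mean 1845 ± 224, SD, n = 2). That is at least 1999-fold above the limit of 3 reads over the roots (edgeR adjusted p = 1.97e-10). Of the 5 tested members of its component 4 were shoot-higher and 1 was not called. The transcript c42712_g1 had 1 and 2 reads in roots, against 6705 and 5793 CPM in shoots (mean 6249 ± 645, SD, n = 2). Its pooled ratio was 6770-fold, with an exact counting interval of 2316 to 32830 (edgeR adjusted p = 5.54e-11). The bounds and intervals treat reads as independent molecules, which they are not.

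Transcripts read in one organ alone formed the tail of the distribution. Of the root-higher transcripts 652 had no read in either shoot library, with a median of 28 reads in roots. Of the shoot-higher transcripts 273 had no read in either root library, with a median of 46 reads in shoots. At such depths a low level in the other organ was not detectable.

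**Figure D3:**
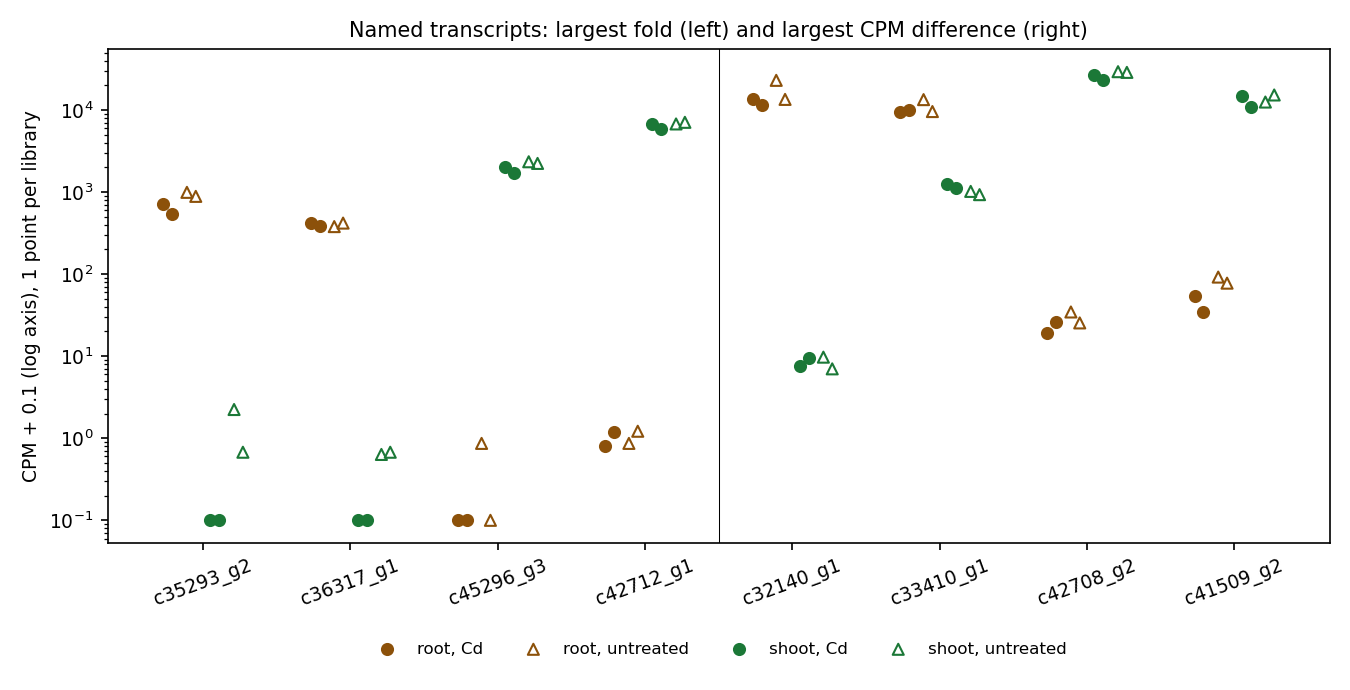
Level of each named transcript in the 8 Sedum plumbizincicola libraries (vertical axis, CPM + 0.1, log scale; circles Cd-treated, triangles untreated; brown root, green shoot), 1 point per library. The left 4 have the largest fitted fold changes and the right 4 the largest CPM differences among transcripts with Sedum alfredii reads; in each the root and shoot points stay apart at both doses.

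Presence of a transcript in Sedum alfredii separates sequences read in both species from those read almost only in Sedum plumbizincicola. Of the tested transcripts 17165 had at least 10 reads over the 4 Sedum alfredii libraries, Cd-treated and untreated, and 2770 had fewer. Among the former 4253 were root-higher (24.8%) and 4033 shoot-higher (23.5%) under Cd. Among the latter 667 were root-higher (24.1%) and 623 shoot-higher (22.5%). The share of transcripts that differed between organs was therefore close in both classes, and close to the 24.7% and 23.4% over all tested transcripts.

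The sizes of the differences were not alike in the 2 classes. The median log2 fold change of root-higher transcripts was 1.52 with Sedum alfredii reads and 5.0 with fewer. In the second class 350 of the 667 had no shoot read, and with these set to 3 reads its median was 2.59. Shoot-higher transcripts had medians of -1.98 and -2.65, or -1.98 and -2.60 with 3 reads set for 0. Differences of 4-fold or more made up 36.7% of root-higher and 49.5% of shoot-higher transcripts with Sedum alfredii reads, and 64.6% and 65.5% of those with fewer. Transcripts of the second class have to differ by more to be called at their depth, and the part of depth in this gap was not tested. A fit to the 4 Cd-treated libraries alone tested 1695 transcripts of the second class and called 426 of them root-higher. Over all transcripts it called 4555 of 17757 root-higher.

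Among transcripts with Sedum alfredii reads, the largest difference in CPM in favour of roots was that of c32140_g1. It stood at 13535 and 11549 CPM in root libraries A and B (mean 12542 ± 1404, SD, n = 2) and at 7.54 and 9.27 CPM in shoot libraries A and B (mean 8.40 ± 1.22, SD, n = 2). The log2 fold change was 10.53 (SE 0.42, edgeR adjusted p = 1.55e-10). Per length it was the most abundant transcript of both root libraries, at 46400 and 39800 TPM. It took 1.52% and 1.30% of their reads. The second was c33410_g1, at 9409 and 9928 CPM in roots (mean 9669 ± 367, SD, n = 2) and 1263 and 1132 CPM in shoots (mean 1197 ± 92.5, SD, n = 2). Its log2 fold change was 3.01 (SE 0.25, edgeR adjusted p = 1.28e-07), and it ranked 10 by TPM in both root libraries and 138 in both shoot libraries, so it was abundant in each organ.

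In favour of shoots the largest CPM difference was that of c42708_g2, at 26833 and 23240 CPM in shoot libraries A and B (mean 25037 ± 2540, SD, n = 2) and 19.1 and 26.1 CPM in root libraries A and B (mean 22.6 ± 4.97, SD, n = 2). The log2 fold change was -10.10 (SE 0.37, edgeR adjusted p = 9.30e-11). It ranked first by TPM in both shoot libraries, at 53000 and 51300 TPM, and held 2.36% and 2.16% of their reads. The transcript c41509_g2 followed, at 14900 and 10785 CPM in shoots (mean 12842 ± 2909, SD, n = 2) and 54.5 and 34.3 CPM in roots (mean 44.4 ± 14.3, SD, n = 2), a log2 fold change of -8.19 (SE 0.37, edgeR adjusted p = 2.17e-10). All 3 tested members of its component were shoot-higher. The test for a change of the organ difference with Cd, given below, called none of these 8 transcripts (edgeR adjusted p = 1 for each).

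The same transcripts were then read in Cd-treated Sedum alfredii, which has 1 library per organ and so no test. For c32140_g1 the Sedum alfredii root held 10610 reads and the shoot 8, and for c42708_g2 the root held 282 and the shoot 109114. The root held 198 reads of c33410_g1 and the shoot 25. For c41509_g2 the counts were 138 and 57850. Of the transcripts with the largest fitted fold changes, c35293_g2 had 285 root reads and 1 shoot read, c36317_g1 had 451 and 0, c45296_g3 had 0 and 49, and c42712_g1 had 3 and 17033. Each thus lay on the same side as in Sedum plumbizincicola.

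Over all transcripts the direction was mostly shared. Of 4099 root-higher transcripts with at least 10 reads in a Cd-treated Sedum alfredii library, 3310 (80.8%) were also higher in its root, where 51.1% of all 16358 such transcripts were. Of 3841 shoot-higher ones, 3169 (82.5%) were also higher in its shoot, against 48.9% overall. A Sedum alfredii difference of 2-fold or more on the same side was seen in 47.1% of the root-higher and 61.4% of the shoot-higher transcripts, where 22.2% and 20.7% of all measured transcripts reached that size. The median Sedum alfredii log2 ratio was 0.88 for root-higher transcripts, -1.51 for shoot-higher ones and 0.05 for those not called.

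The shared direction went with the size of the difference. Among transcripts that differed by less than 2-fold in Sedum plumbizincicola, 68.7% of the root-higher and 69.3% of the shoot-higher ones had the same direction in Sedum alfredii. At 4 to 8-fold the shares were 87.0% and 87.1%, and at 64-fold or more they were 98.2% and 97.8%, or 164 of 167 and 223 of 228 transcripts. Across the 16358 transcripts the log2 ratios of the species had a Pearson correlation of 0.758 (Spearman 0.603), a description across transcripts that were all measured on 1 shared transcript set.

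**Figure D4:**
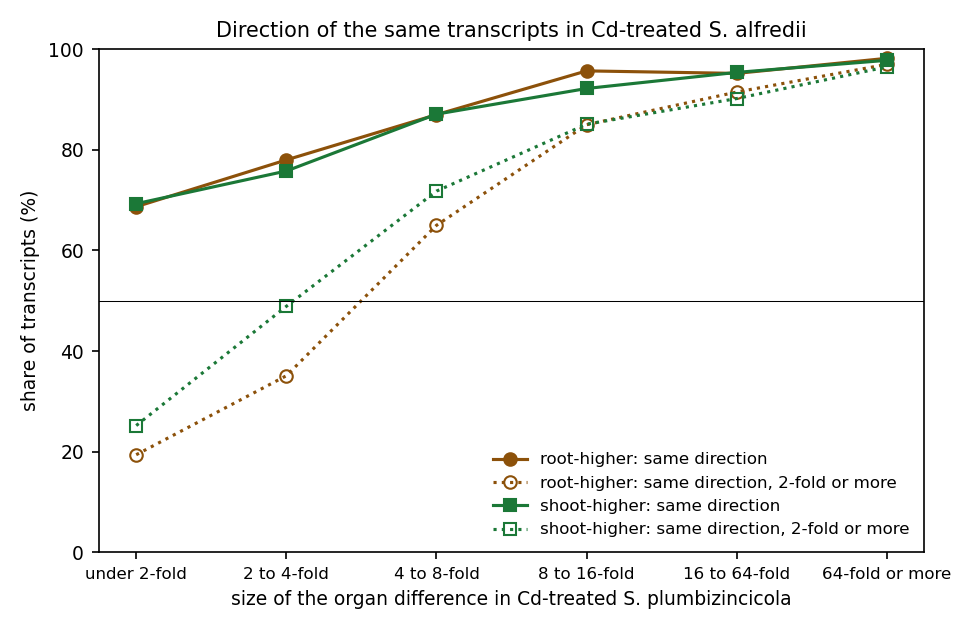
Share of called transcripts (vertical axis, %) with the same direction in Cd-treated Sedum alfredii (solid lines) and with 2-fold or more in the same direction (dotted lines), by size of the organ difference in Cd-treated Sedum plumbizincicola (horizontal axis). The solid lines run from 68.7% (brown circles, root-higher) and 69.3% (green squares, shoot-higher) at under 2-fold to 98.2% and 97.8% at 64-fold or more; the thin line marks 50%.

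The direction was opposite in Sedum alfredii for 789 root-higher and 672 shoot-higher transcripts, in most of them by less than 2-fold. In Sedum alfredii 104 of the root-higher transcripts were 2-fold or more higher in the shoot, 26 of them 4-fold or more. Of the shoot-higher transcripts 197 were 2-fold or more higher in the root, 55 of them 4-fold or more. Over all measured transcripts 9.87% were 4-fold or more higher in the Sedum alfredii root and 10.8% in its shoot. Of the 302 root-higher transcripts with Sedum alfredii reads that had no read in Sedum plumbizincicola shoots, 184 had none in the Cd-treated Sedum alfredii shoot either. The same held in roots for 56 of 174 shoot-higher transcripts.

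Whether the organ difference depended on Cd was tested against untreated plants, whose libraries are separate from the 4 above. The interaction test of edgeR called none of 19935 transcripts (0%), its smallest adjusted p being 0.065. Without adjustment, 528 had a p under 0.05. Where groups had 0 reads, the test could hardly call a change. A fit with the replicate letter as a block called 6 transcripts in edgeR, one without a filter on low counts 12, and one with at least 10 reads in each Cd-treated library 2. DESeq2 called 1, and limma called 306 on log2(TPM + 1) and 71 on log2(TPM + 0.1). The log2 fold changes at both doses had a Pearson correlation of 0.934 (Spearman 0.929) across the 19935 transcripts, and their median difference was 0.02. Without Cd 5423 transcripts were root-higher (27.2%) and 5065 shoot-higher (25.4%), together 52.6%.

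Most calls were made at both doses. The 4176 transcripts that were root-higher with and without Cd are 84.9% of the root-higher list under Cd and 77% of that without. The 4204 shoot-higher at both doses are 90.3% and 83% of the shoot-higher lists. Of the 744 root-higher transcripts called with Cd only, 712 had the same sign without it, as did 435 of the 452 shoot-higher ones. A call at one dose and not at the other was thus no change of direction in most cases, and the interaction test of edgeR without the block called none of them.

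In opposite directions at the doses 4 transcripts were called, and they are named after their values were seen. The count was 2 without untreated shoot library A, untreated root library B, Cd-treated root library A or Cd-treated shoot library A. It was 2 with DESeq2, 1 in a test against a 2-fold difference and 6 with the replicate block. The lowest interaction p was that of c42128_g2, at 59.4 and 62.1 CPM in Cd-treated roots and 103.8 and 108.9 CPM in Cd-treated shoots. Without Cd it stood at 383.5 and 271.5 CPM in roots and 130.5 and 118.5 CPM in shoots. Its log2 fold change, root over shoot, was -0.81 with Cd (edgeR adjusted p = 0.00761) and 1.39 without (adjusted p = 5.55e-05), with an interaction adjusted p of 0.065. Its root level was lower with Cd in both libraries, while the shoot levels lay close together.

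The transcript c35472_g5 went the other way. It stood at 40.3 and 23.96 CPM in Cd-treated roots and 7.54 and 10.4 CPM in Cd-treated shoots, against 2.30 and 2.61 CPM in untreated roots and 10.2 and 14.4 CPM in untreated shoots. The log2 fold changes were 1.81 (edgeR adjusted p = 0.000834) and -2.26 (adjusted p = 0.00129), with an interaction adjusted p of 0.0808. The other two were c34959_g1, with log2 fold changes of 1.04 with Cd and -1.02 without, and c38107_g2, with -1.36 and 1.79. Both had an interaction adjusted p of 1 from edgeR, on 210 and 68 reads over the 8 libraries. All 4 had over 200 Sedum alfredii reads.

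**Figure D5:**
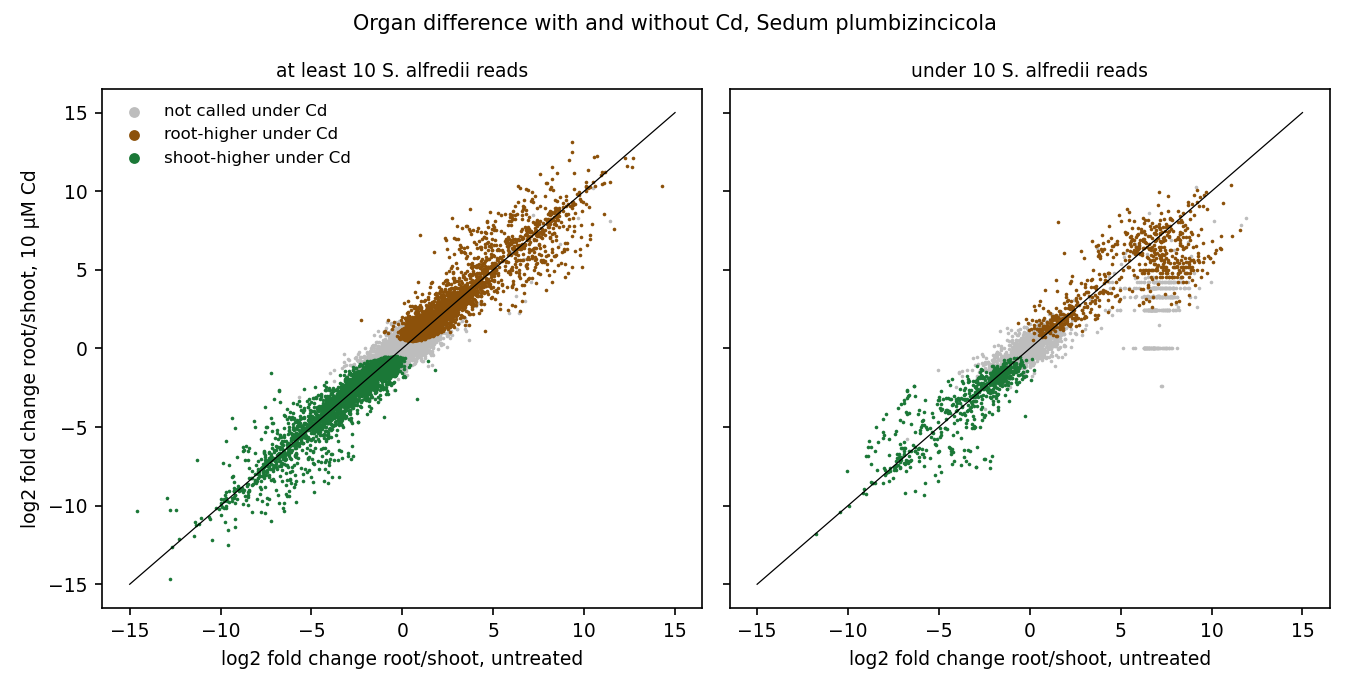
Log2 fold change, root over shoot, in Cd-treated (vertical axis) against untreated (horizontal axis) Sedum plumbizincicola, 1 point per tested transcript, coloured by the call under Cd; the line marks equal values. Transcripts with at least 10 Sedum alfredii reads (left) follow the line, while in the class with fewer (right) a cloud of root-higher transcripts without Cd, among them 418 not called under Cd, lies below it; 352 of the 418 pass the filter on low counts in untreated libraries and not in Cd-treated ones.

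The class with under 10 Sedum alfredii reads had fewer root-higher calls with Cd than without. The filter on low counts was run on the libraries of both doses together, and its part in this gap was not tested. The class held 1008 root-higher transcripts without Cd (36.4% of 2770) and 667 with Cd (24.1%), while its shoot-higher transcripts numbered 673 (24.3%) and 623 (22.5%). In the class with Sedum alfredii reads the root-higher counts were 4415 (25.7%) without and 4253 (24.8%) with Cd, and the shoot-higher counts 4392 (25.6%) and 4033 (23.5%). Of its 2770 transcripts 1695 pass the filter in the Cd-treated libraries alone, 2282 in the untreated ones alone and 1503 in both. Among the 1503, 343 were root-higher with Cd and 352 without. Passing at each dose favours transcripts with reads at both, so these near-equal counts are partly set by the selection. They do not show how the gap between doses arose. The median difference of the log2 fold changes, Cd minus untreated, was -0.14 in the first class and 0.03 in the second. No transcript of the first class was called by the interaction test of edgeR. The smallest adjusted p was 0.557, and 77 had an unadjusted p under 0.05. Counts of 0 leave that test little to work with. An example is c14760_g1, which had no Cd-treated read in either organ. It was not called, at log2 fold changes of 0 with Cd and 7.63 without. The lack of calls therefore does not show an equal organ difference at both doses. Whether the classes differ was not tested.

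Of the 1008 root-higher transcripts without Cd, 590 were also root-higher with it and 418 were not called. Of the 418, 352 pass the filter in the untreated libraries and not in the Cd-treated ones, so they were tested because they were read in untreated plants and had to be low with Cd. The 418 had a median of 39 reads over both untreated root libraries and 3 over both Cd-treated ones, where 58 had no read. They had few shoot reads, with 338 of them at 5 reads or fewer over the 4 shoot libraries, so at the Cd-treated root level a difference between organs was seldom detectable. The 590 had medians of 60 reads without and 27 with Cd. These lists were chosen by their calls in the same libraries.

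The share of reads that fell on the class was taken over all its transcripts, with no filter and no call. Transcripts with under 10 Sedum alfredii reads took 4.38% of the reads in root library A under Cd, with an exact 95% binomial interval from 4.34% to 4.41%. In root library B they took 4.67%, with an interval from 4.64% to 4.70%. In Cd-treated shoots the shares were 3.75% and 4.04%. Untreated roots had 6.29% and 6.84% and untreated shoots 3.64% and 3.62%. Both root libraries thus lay above both shoot libraries at each dose, and the gap between organs was narrower with Cd. Intervals cover counting error only.

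Members of a component did not always share a direction. Of 2969 components with 2 or more tested transcripts, 944 had root-higher calls and none shoot-higher, 900 the reverse, and 930 no call. Calls in both directions occurred in 195 components (6.57%), in 44 of them at 4-fold or more on each side. The count was 121 without Cd-treated shoot library A and 125 without library B, 83 with DESeq2, and 56 both with at least 10 reads in each Cd-treated library and in the test against a 2-fold difference. Among transcripts with Sedum alfredii reads it was 145 of 2266 components (6.4%). Reads of near-identical members can be divided between them, so the levels of members of 1 component are uncertain.

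The organs were also compared by the isoform-weighted length, which the authors' tables give for each cluster and library. Of 11056 transcripts with several isoforms and at least 10 reads in each of the 4 libraries, 894 (8.09%) had lengths that differed by more than 1.1-fold between the organs in every root-shoot pair. They were longer in roots for 487 and longer in shoots for 407, and 438 of them had no call for a difference in level. Between replicate libraries, 2149 differed by more than 1.1-fold in roots and 1816 in shoots. These counts rest on 1 pair of libraries and the 894 on every root-shoot pair, so the criteria are unlike. Whether the lengths differ between organs was not tested.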

How the data were processed

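RNA-seq of roots and shoots was analysed from RSEM tables, 1 per library. Per the submitters' processing notes the tools were FastQC, Bowtie and RSEM. Their versions and the making of the transcript set are not given in the sources used here. The authors deposited, for each transcript cluster, an expected count, TPM, FPKM and an isoform-weighted length, per the file headers. Of the expected counts the authors deposited, 98.7% to 99.4% of the values above 0 were whole, and all were rounded. The deposited TPM was used for ranks and for a limma alternative. No test used the deposited FPKM. No identifier carries a gene name, so no gene list or sequence was used. A pooled pyrosequencing library was not analysed here.

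The 8 Sedum plumbizincicola libraries were fitted by group with edgeR 4.0.16 (R 4.3.3). The fit used filterByExpr, which kept 97.4% to 98.4% of each library's reads, TMM factors and a two-sided quasi-likelihood F-test with robust estimation. The residual degrees of freedom were 4, and the biological coefficient of variation over all transcripts was 0.177. P-values were adjusted over all 19935 transcripts tested. Printed CPM use these factors. Sedum alfredii was normalised on its own, with log2 ratios at a prior count of 2. SEs and 95% intervals follow from the F statistic. Alternatives included DESeq2 1.42.0 and limma 3.58.1. The edgeR, DESeq2 and limma fits were first tested on simulated counts with known fold changes. In the simulation few transcripts differed between organs, and limma was run on log2 CPM and not on TPM. An organ difference as broad as the one reported here was not simulated. The other steps were not tested.

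Named transcripts were called, had an average log2 CPM of 1 or more, and had root and shoot libraries that did not overlap. Of these, the 2 with the highest and the 2 with the lowest log2 fold change were taken. With at least 10 Sedum alfredii reads, the 2 calls per direction with the largest CPM difference were added. The libraries compared and the lists were chosen with earlier results of these data known.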

Additional observations from a re-analysis of the deposited data

Results flagged for a closer look

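Organ differences in opposite directions in the species were flagged by the call in Cd-treated Sedum plumbizincicola and the ratio in Cd-treated Sedum alfredii. Untreated libraries were not part of the flag. Under Cd 26 root-higher transcripts of Sedum plumbizincicola were 4-fold or more higher in the shoot of Sedum alfredii, and 55 shoot-higher ones were 4-fold or more higher in its root. Sedum alfredii has 1 library per organ, so the difference was not tested.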

How the results depend on the processing

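No call reversed under any alternative, and the direction and call of the 8 named transcripts held in 148 of 148 alternatives. Over all results 373 of 445 alternatives met the criterion for an unchanged result and 72 moved. The criterion was loose for counts, where 3402 shoot-higher transcripts with DESeq2 against 4656 met it. A share had to lie within the exact 95% binomial interval of the reported share. The 373 include the 148 of the named transcripts, which were judged by direction and call and not by size. The cause of the shifts was not tested, except that a stricter filter tests fewer transcripts.

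With DESeq2, 3090 transcripts were root-higher, 2620 of them with Sedum alfredii reads, 415 were shoot-higher with fewer such reads, and 1 passed for the interaction; 86.7% and 86.6% of root-higher and shoot-higher transcripts kept their direction in Sedum alfredii. Those shares were 76.6% and 87.8% with limma on log2(TPM + 1), where 306 passed for the interaction, and 76.6% and 88.9% on log2(TPM + 0.1), where 71 did. Without a filter, 1071 root-higher and 947 shoot-higher transcripts had under 10 Sedum alfredii reads, the root share was 82.1% and 12 passed for the interaction. With 10 reads required in each Cd-treated library, 2431 were root-higher and 2729 shoot-higher, 2376 and 2601 with Sedum alfredii reads and 55 and 128 with fewer. The shares were then 77.7% and 78.5%, 2 passed for the interaction, and 2830 and 3013 were called without Cd. With the 4 Cd-treated libraries alone, 426 of the 1695 tested with fewer Sedum alfredii reads were root-higher, and the shoot share was 80.9%.

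Tested against a 2-fold difference, 2330 were root-higher and 2760 shoot-higher under Cd, 1864 and 2378 with Sedum alfredii reads and 382 shoot-higher with fewer, while 2786 and 2983 were called without Cd; the shares were 90.6% and 90.5%. With a minimum of 50 Sedum alfredii reads, the class below it held 1060 root-higher and 998 shoot-higher calls, and the shoot share was 83.8%. With 10 reads required in each Sedum alfredii organ it held 1494 and 1116, and the root share was 77%.

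With 1 library left out at a time, the root share ran from 79.4% to 86.8%, the shoot share from 81.3% to 86.3%, and 0 to 1 transcripts passed for the interaction. Root-higher calls numbered 3597 to 5196 and shoot-higher calls 3845 to 5027. A group left with 1 library was assumed to vary like the others.

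A fit with the replicate block called 5483 root-higher and 5051 shoot-higher, 6 passed for the interaction, and the shares were 79.2% and 80.3%. Deviations of libraries with the same letter correlated at 0.095 to 0.335 between groups across transcripts, and at 0.121 between Cd-treated roots and shoots. No label says that a letter marks shared plants, so the libraries were not treated as paired. Depth limits the class with under 10 Sedum alfredii reads most, where 1332 of 1480 transcripts without a call had intervals wider than 2-fold. The rest include transcripts without a read in any Cd-treated library, such as c14760_g1. Their SE of 0 reflects a lack of reads, so their difference was not resolved either.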
